A study of Mus musculus with 12 samples.

Results

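CD4 and CD8 negative (double negative) T cells of the mouse liver were compared by T cell receptor type: cells sorted for TCRγδ against cells sorted for TCRαβ, in the libraries labelled as without arachidonic acid (AA). The comparison took 6 of the 12 libraries of the series by their labels, 3 of TCRγδ cells and 3 of TCRαβ cells, and covered all genes. The other 6 libraries, 3 of each population, were labelled as stimulated with AA for 48 h. They were part of the fit, and so of the filter and the spread behind edgeR's p-values and errors. They also set the population difference beside that with AA. All cells came from the liver of adult C57BL/6 mice, for which the labels give no genetic change, and were live CD45+ CD3+ NK1.1- CD4- CD8- cells sorted before the stimulation. The labels do not say whether cells without AA were also kept in culture, nor whether each library of a group was its own animal or culture. The p-values therefore reflect the spread among libraries alone, which may be technical.

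T cells carry either an αβ or a γδ receptor on the shared CD3 complex, and the choice is made in the thymus. γδ T cells settle in tissues such as the liver, where many are poised to make IL-17 under transcription factors that include those encoded by Maf and Sox13, and depend on IL-7 for survival. Double negative αβ T cells lack both coreceptors and are known for suppressive as well as inflammatory roles in the liver.

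Library totals were 19327567, 24145149 and 20983619 counts for the γδ libraries and 21616779, 21189619 and 30548253 counts for the αβ libraries. Values are given as CPM, the counts scaled to a total of 1000000 in each library, in the order of libraries 1 to 3. They compare a gene between libraries and not one gene with another. The receptor genes went against the labels in the third library of both populations. The ratio of Trdc counts (the δ chain constant gene) to the summed counts of Cd3d, Cd3e and Cd3g was 0.361, 0.427 and 0.0292 in γδ libraries, against 0.0178, 0.0243 and 0.354 in αβ libraries. The same ratio for the summed αβ constant genes Trac, Trbc1 and Trbc2 was 2.04, 2.78 and 4.44 in γδ libraries, against 7.32, 5.64 and 2.70 in αβ libraries. By the Trdc ratio the third library labelled γδ lay nearest to αβ libraries 1 and 2, and by the αβ ratio it lay between γδ library 2 and αβ library 2. By both ratios the third library labelled αβ lay nearest to γδ libraries. Across 14273 genes, the third library labelled αβ correlated at r = 0.913 and 0.952 with γδ libraries 1 and 2 and at 0.904 and 0.898 with αβ libraries 1 and 2. γδ library 2 also correlated more with αβ libraries 1 and 2, at 0.931 and 0.928, than with γδ library 1, at 0.915. Whether the third libraries were exchanged with each other was not tested, and an exchange would change what each value of 3 against 3 libraries means. The libraries stayed in their labelled groups, and the comparison is also given without the third library of each population.

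No gene differed between γδ and αβ cells past the threshold of an adjusted p of 0.05. Of 22107 genes tested with edgeR's quasi-likelihood test, 0 were called (0.0%), and the smallest adjusted p was 1. At an unadjusted p under 0.05 there were 729 genes, of which 189 were higher in γδ cells (0.855% of the genes tested) and 540 were lower (2.44%). In 870 genes (3.94%) all 3 γδ libraries lay above all 3 αβ libraries, and in 918 (4.15%) all lay below. An exact two-sided permutation test of 3 against 3 libraries can give no p under 0.1, even for a gene so separated. Separation alone is therefore not evidence of a population difference for any gene named below. Fold changes of single genes were large, with 35.7% of the genes at a log2 fold change of at least 1 in either direction. But so was the spread, with a common biological coefficient of variation of 1.21 in the fit to all 12 libraries, those with AA included. DESeq2 called 109 of 30007 genes (0.363%), 32 higher and 77 lower in γδ cells. Of these 109 genes, 105 averaged under 5 CPM in the higher group, and in 31 the groups did not overlap. The remaining 4, named after their values were seen, were Inca1, Lrrc2 and Aamdc, higher in γδ cells, and Asah2, lower.

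The receptor genes of the γδ lineage stood higher in γδ libraries 1 and 2 and in the third library labelled αβ. Trdc had 246, 265 and 11.6 CPM in γδ libraries, against 3.70, 5.90 and 201 CPM in αβ libraries. The first and second γδ libraries were high, the third was near the low αβ libraries, and the groups overlapped, with a log2 fold change of 1.25 ± 1.30 (SE, as for all fold changes below). With each library left out in turn it ran from 0.71 to 5.15, the highest without αβ library 3, and it was 3.12 with voom and quality weights, with no call in any of these fits. A value in brackets after the values of a gene is likewise its log2 fold change of γδ over αβ with the SE. Some of the γ chain constant genes are close copies of each other, and their counts may be split between them. Among the γ chain constant genes, Tcrg-C4 had 438, 409.9 and 80.4 CPM in γδ libraries, against 67.6, 56.1 and 302 CPM in αβ libraries. Tcrg-C2 had 222, 188 and 43.5 CPM in γδ libraries, against 45.8, 30.2 and 169.9 CPM in αβ libraries. Tcrg-C1 had 90.1, 39.3 and 20.6 CPM in γδ libraries, against 8.23, 12.1 and 33.0 CPM in αβ libraries. All 5 constant genes of the γ and δ chains had a positive log2 fold change, with a median of 1.08, beside -0.07 over all genes tested, and in 0 of them were the groups apart. Of 12 variable segments matched, 4 had enough counts to be tested. They were Trdv1, Trdv2-2, Trdv4 and Tcrg-V1, all with a positive log2 fold change and a median of 1.67. Tcrg-V1 had 12.1, 5.88 and 1.57 CPM in γδ libraries, against 0.925, 0.614 and 7.43 CPM in αβ libraries, and Trdv4 had 7.55, 3.06 and 0.286 CPM in γδ libraries, against 0, 0 and 1.57 CPM in αβ libraries. Both segments were higher in γδ libraries 1 and 2 and in the third library labelled αβ than in the other libraries. For Tcrg-V1 the third library labelled αβ lay above γδ library 2. Tcrg-V6, the segment of the IL-17 producing cells of several tissues, stayed at or under 1.02 CPM in every library.

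By CPM the αβ chain genes did not separate the labelled groups. Per CD3 count, as given above, they were highest in αβ libraries 1 and 2, followed by the third library labelled γδ. Trac, the α chain constant gene, had 119.7, 422 and 475 CPM in γδ libraries, against 606, 515 and 306 CPM in αβ libraries. Trac was thus higher in αβ libraries 1 and 2 and the third library labelled γδ than in the other libraries. Trbc1 had 473, 421 and 329 CPM in γδ libraries, against 263, 262 and 389 CPM in αβ libraries, and Trbc2, the second β chain constant gene, had 800.2, 887 and 968 CPM in γδ libraries, against 658, 594 and 842 CPM in αβ libraries. Of the 3 αβ constant genes, 2 had a positive and 1 a negative log2 fold change, with a median of 0.31. The coreceptor genes that the sort selected against were near 0, with Cd4 at 0, 0.414 and 0 CPM in γδ libraries, against 1.34, 0.519 and 2.16 CPM in αβ libraries. Cd8a reached 3.29 CPM, and Klrb1c, which encodes NK1.1, lay between 4.48 and 9.25 CPM.

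**Figure D1:**
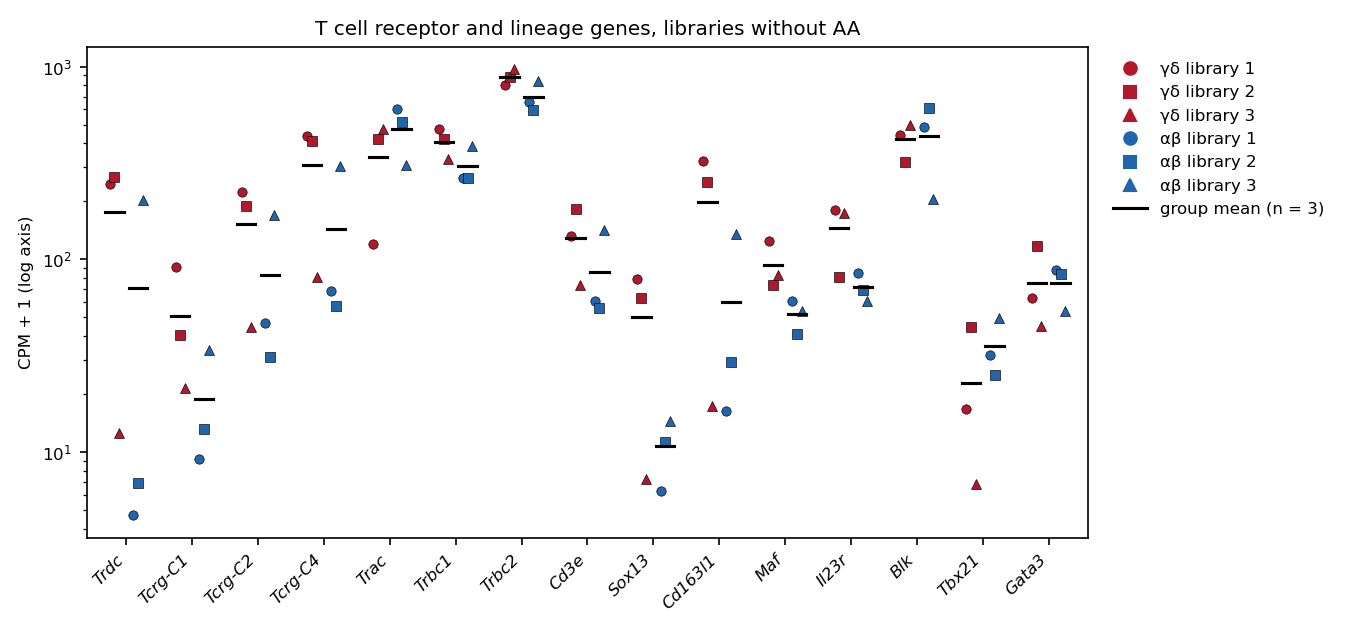
CPM plus 1 (log axis) of receptor, CD3 and lineage genes in each library without AA, γδ in red and αβ in blue, with bars at the group means of 3 libraries. Trdc, Tcrg-C2, Tcrg-C4 and Cd163l1 are low in the third library labelled γδ (triangle) and high in the third library labelled αβ, while the 3 γδ libraries of Maf lie above all αβ libraries.

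Of 18 regulators and markers of the γδ lineage, 13 had a higher and 5 a lower fitted level in γδ cells. The median log2 fold change was 0.43, with no call. In 4 of the 18 the groups did not overlap, all of them higher. Over all genes tested, 3.94% were higher and 4.15% lower in every γδ library. Whether this list held more separated genes than that background was not tested. Maf, Bcl11b and Il7r were among those 4. Maf, a transcription factor of IL-17 producing γδ cells, had 124, 72.6 and 81.7 CPM in γδ libraries, against 59.5, 40.1 and 53.1 CPM in αβ libraries (0.86 ± 0.57). Bcl11b, a T lineage commitment factor, had 59.0, 73.4 and 76.2 CPM in γδ libraries, against 35.9, 26.5 and 58.3 CPM in αβ libraries (0.75 ± 1.05). Il7r, the IL-7 receptor α chain, is described with the separated genes. Sox13, a γδ lineage factor, had 78.5, 62.4 and 6.29 CPM in γδ libraries, against 5.27, 10.3 and 13.5 CPM in αβ libraries, high in γδ libraries 1 and 2 and low in all others, with a log2 fold change of 2.31 ± 1.20. Cd163l1, a scavenger receptor gene of IL-17 producing γδ cells, had 325, 252 and 16.3 CPM in γδ libraries, against 15.4, 28.4 and 134 CPM in αβ libraries (1.70 ± 0.95). Its paralogue 5830411N06Rik had 729, 482 and 66.1 CPM in γδ libraries, against 45.1, 83.4 and 220.4 CPM in αβ libraries. In both scavenger receptor genes, as in Trdc, the third library labelled γδ was near αβ libraries 1 and 2 and the third library labelled αβ was above them.

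No gene of the type 17 list was called. Of 22 genes tested, 16 had a higher and 6 a lower fitted level in γδ cells. The median log2 fold change was 0.65. In every γδ library 4 were higher and 1 lower, beside 3.94% and 4.15% of all genes tested. An excess over that background was not tested. Il23r, the IL-23 receptor, had 179, 80.5 and 173 CPM in γδ libraries, against 83.8, 68.1 and 60.1 CPM in αβ libraries, with overlap in a single γδ library. Ramp1, a subunit of the receptor of the neuropeptide CGRP, had 226, 161 and 195 CPM in γδ libraries, against 52.8, 112 and 137 CPM in αβ libraries, apart in all libraries, with a log2 fold change of 0.91 ± 0.43. Ltb4r1, a receptor of leukotriene B4, had 24.2, 20.2 and 47.9 CPM in γδ libraries, against 9.85, 13.4 and 17.02 CPM in αβ libraries, also apart, with a wide error at 1.15 ± 1.27. The cytokine Il17a had 106, 130.1 and 308 CPM in γδ libraries, against 779.9, 228 and 195 CPM in αβ libraries, and its highest value was that of αβ library 1. Il17f had 156, 133 and 46.8 CPM in γδ libraries, against 165, 69.1 and 117 CPM in αβ libraries, with no separation. Il22, which encodes a cytokine that acts on epithelium, was lower in all γδ libraries, with 8.07, 4.89 and 0 CPM in γδ libraries, against 150.2, 12.4 and 15.5 CPM in αβ libraries. The αβ group was spread more than 10-fold for Il22, and the log2 fold change was -3.72 ± 2.03. Blk, a kinase of IL-17 producing γδ cells and of B cells, had 439, 320.4 and 497 CPM in γδ libraries, against 486, 612 and 206 CPM in αβ libraries and did not separate the groups.

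CD3 chains and the proximal machinery of receptor signalling were mostly higher in γδ cells without reaching a call. Of 24 genes, 18 had a higher and 6 a lower fitted level, with a median log2 fold change of 0.45. Cd3d had 386, 300.1 and 228 CPM in γδ libraries, against 109, 131 and 309 CPM in αβ libraries. Cd3g had 166, 141 and 98.9 CPM in γδ libraries, against 39.6, 56.5 and 119 CPM in αβ libraries. As with Trdc, the αβ values were high in the third library labelled αβ alone. Since these are bulk libraries, fewer T cells among the cells sequenced and less CD3 RNA per T cell cannot be told apart. Rasgrp1, the exchange factor that links the receptor to Ras, was the single member whose libraries did not overlap, with 182, 186 and 134 CPM in γδ libraries, against 101, 122 and 97.8 CPM in αβ libraries (0.62 ± 0.42). Over all genes tested, 3.94% were higher in every γδ library, so 1 of 24 is near that background. The kinase genes Lck and Zap70 overlapped, with Lck at 216, 469 and 324 CPM in γδ libraries, against 386, 319.5 and 365 CPM in αβ libraries. The αβ libraries held a narrow range of Lck within the wider range of the γδ libraries.

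A set of surface receptor genes was higher in every γδ library, the third included. Il7r, through which T cells receive IL-7 survival signals, had 571, 312 and 291 CPM in γδ libraries, against 154, 141 and 215 CPM in αβ libraries. It averaged 392 ± 156 CPM in γδ cells and 169.8 ± 39.3 CPM in αβ cells (SD, 3 libraries each), and its log2 fold change was 1.19 ± 0.40 (unadjusted p = 0.0104 and adjusted p = 1 by edgeR). Cxcr6, a chemokine receptor that retains T cells in the liver sinusoids, had 428, 289 and 379.6 CPM in γδ libraries, against 137, 161 and 207 CPM in αβ libraries (1.09 ± 0.45). Ccr10, a chemokine receptor of skin and mucosal lymphocytes, was nearly restricted to γδ libraries, with 27.2, 11.0 and 11.4 CPM in γδ libraries, against 0.463, 0 and 0.0982 CPM in αβ libraries. Its log2 fold change was 6.47 ± 2.52, the widest error of the receptor genes named here. Pvrig, an inhibitory receptor of T and NK cells, had 7.45, 4.39 and 4.67 CPM in γδ libraries, against 0.0925, 0.236 and 1.31 CPM in αβ libraries (3.27 ± 2.26). Cd84, a receptor of the SLAM family that bridges lymphocytes, had 330.1, 209.8 and 242 CPM in γδ libraries, against 136, 139 and 164 CPM in αβ libraries (0.82 ± 0.30). Il18r1, the IL-18 receptor of type 1 and innate-like T cells, had 54.9, 62.4 and 49.3 CPM in γδ libraries, against 26.9, 37.9 and 26.4 CPM in αβ libraries (0.84 ± 0.61). In all of these genes the lowest γδ library lay above the highest αβ library, which was in part the reason for naming them.

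Among intracellular genes with the same pattern, Crip1, which encodes a small LIM protein of leukocytes, had 132, 105 and 102 CPM in γδ libraries, against 29.9, 33.3 and 71.8 CPM in αβ libraries (1.29 ± 0.43). Znrf1, a ubiquitin ligase gene, had 70.6, 78.3 and 81.0 CPM in γδ libraries, against 12.9, 17.5 and 51.3 CPM in αβ libraries (1.44 ± 0.54). Frmd4b, a scaffold gene, had 11.8, 9.24 and 9.15 CPM in γδ libraries, against 2.17, 1.27 and 3.70 CPM in αβ libraries (2.05 ± 0.94). Tox, a nuclear factor of T cell development and exhaustion, had 91.5, 101 and 57.7 CPM in γδ libraries, against 46.4, 49.1 and 54.2 CPM in αβ libraries (0.71 ± 0.44), with the third library labelled γδ close to the αβ libraries. Mgst2, a microsomal glutathione transferase gene, had 32.6, 24.2 and 28.5 CPM in γδ libraries, against 5.78, 7.27 and 8.84 CPM in αβ libraries. Kcnk1, a potassium channel gene, had 24.0, 18.9 and 15.1 CPM in γδ libraries, against 5.18, 5.14 and 3.31 CPM in αβ libraries. Both were at least 2-fold apart between the nearest libraries. Inca1 and Lrrc2 had no count in any αβ library. Inca1, an inhibitor of cyclin A bound kinase, had 8.80, 2.65 and 11.8 CPM in γδ libraries, which is at least 182-fold higher when a floor of 3 counts is set over the αβ group. Lrrc2 had 13.2, 1.04 and 1.19 CPM in γδ libraries, at least 116-fold higher over the same floor, with most of its counts in library 1. Selenop, the gene of a selenium transport protein that macrophages also make, was among the 8 genes with the smallest unadjusted p of those higher in γδ cells at a mean of 5 CPM or more, but its groups overlapped, with 497, 205 and 308 CPM in γδ libraries, against 121, 113 and 208 CPM in αβ libraries (1.18 ± 0.42).

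**Figure D2:**
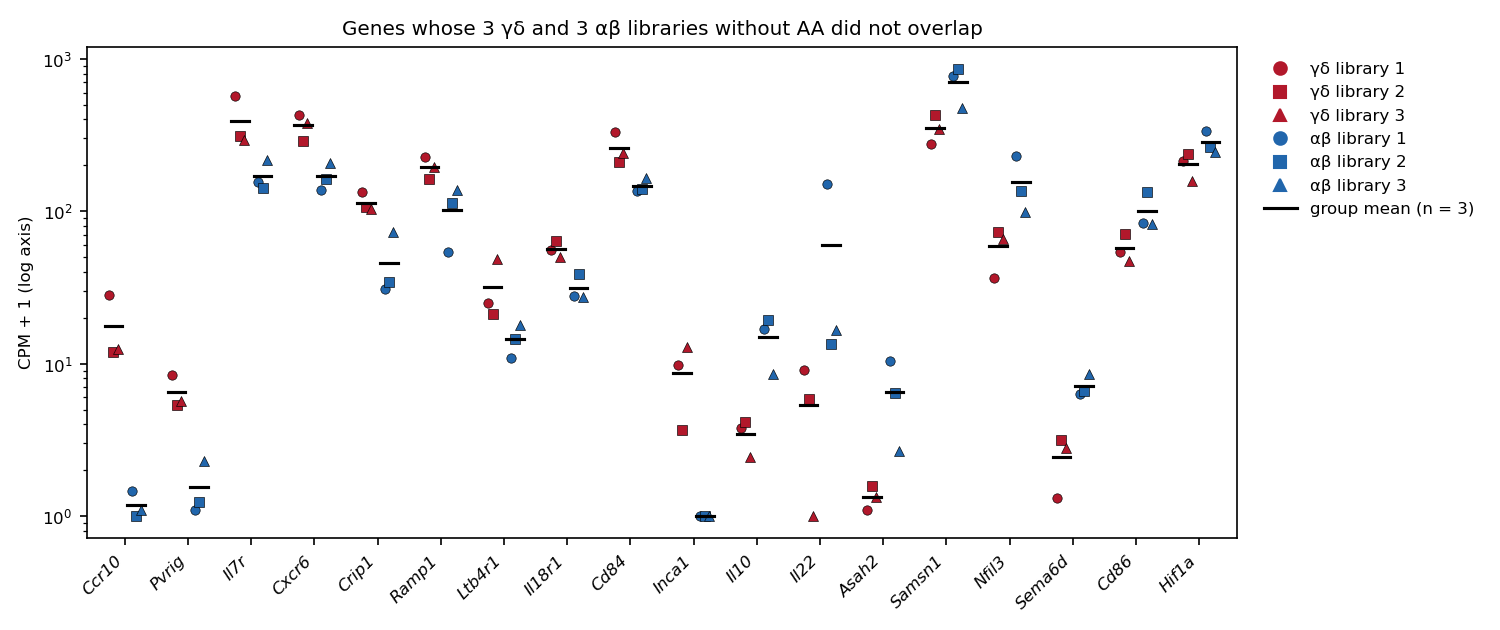
CPM plus 1 (log axis) of 18 genes whose γδ libraries (red) and αβ libraries (blue) without AA did not overlap, with bars at the group means of 3 libraries. The 10 genes at the left, from Ccr10 to Inca1, are higher in every γδ library, and the 8 at the right, from Il10 to Hif1a, are lower in every γδ library. None passed the threshold in edgeR's test.

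The genes lower in every γδ library included Il10, Samsn1, Nfil3, Sema6d and Marcks. Il10, the cytokine by which regulatory lymphocytes restrain inflammation, had 2.79, 3.15 and 1.43 CPM in γδ libraries, against 15.8, 18.3 and 7.59 CPM in αβ libraries. The lowest αβ library held more than 2-fold the highest γδ library, and the log2 fold change was -2.52 ± 1.19. B cells and macrophages also express Il10, and B cell markers took 0.255, 0.479 and 1.54% of counts in γδ libraries, against 1.37, 2.10 and 0.348% in αβ libraries; their part in the Il10 difference was not tested. Samsn1, an adaptor that dampens lymphocyte activation, had 274, 426 and 348 CPM in γδ libraries, against 771, 852 and 473 CPM in αβ libraries (-1.03 ± 0.31, unadjusted p = 0.00519 by edgeR). Nfil3, a transcription factor of innate lymphocyte development and IL-10 induction, had 35.3, 72.6 and 65.1 CPM in γδ libraries, against 230.4, 135 and 97.5 CPM in αβ libraries (-1.45 ± 0.48). Sema6d, a semaphorin gene, had 0.310, 2.15 and 1.81 CPM in γδ libraries, against 5.32, 5.57 and 7.56 CPM in αβ libraries (-2.17 ± 0.71). Marcks, a membrane protein that binds actin, had 34.0, 48.2 and 49.1 CPM in γδ libraries, against 56.5, 73.2 and 123 CPM in αβ libraries (-0.999 ± 0.361).

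Some of the genes lower in γδ cells were low in all libraries. Asah2, a neutral ceramidase gene, had 0.103, 0.580 and 0.334 CPM in γδ libraries, against 9.39, 5.43 and 1.67 CPM in αβ libraries and was one of the 4 genes over 5 CPM that DESeq2 called (adjusted p = 0.00716 by DESeq2). Its edgeR log2 fold change was -4.02 ± 1.19. Klf12, a transcriptional repressor gene, had 1.09, 0.331 and 0.238 CPM in γδ libraries, against 10.3, 3.26 and 4.03 CPM in αβ libraries (-3.36 ± 1.34). Slc29a2, a nucleoside transporter gene, had 0.259, 2.48 and 0.191 CPM in γδ libraries, against 6.80, 7.69 and 11.5 CPM in αβ libraries (-3.22 ± 2.05). Gadd45g, a stress and cytokine response gene of type 1 T cells, had a small unadjusted p (0.0126 by edgeR), yet its groups overlapped through the third library labelled αβ, with 68.8, 126 and 102 CPM in γδ libraries, against 424, 428 and 90.5 CPM in αβ libraries (-1.69 ± 0.59).

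No type 1, type 2 or cytotoxicity gene was called. Of 18 type 1 genes, 8 had a higher and 10 a lower fitted level in γδ cells, with a median log2 fold change of -0.07, and Il18r1 was the single gene with groups apart. That stands beside 3.94% of all genes tested that were higher in every γδ library. Tbx21, the type 1 master regulator T-bet, had 15.7, 43.8 and 5.86 CPM in γδ libraries, against 30.8, 24.0 and 48.9 CPM in αβ libraries, and Ifng, interferon γ, had 1.14, 7.54 and 0 CPM in γδ libraries, against 6.25, 4.81 and 3.44 CPM in αβ libraries. The groups overlapped in both genes. Of 10 type 2 genes tested, 2 had a higher and 8 a lower fitted level, with a median of -0.77 and no pair of groups apart. Gata3, the type 2 master regulator, averaged 74.5 ± 37.7 CPM in γδ cells and 74.4 ± 18.6 CPM in αβ cells (SD, 3 libraries each). Il13 had 0.724, 1.66 and 5.58 CPM in γδ libraries, against 13.8, 2.50 and 0.818 CPM in αβ libraries, low except in single libraries. Of 23 cytotoxicity genes, 15 had a higher and 8 a lower fitted level, with a median of 0.18 and 0 separated. Gzmb, granzyme B, had 7.14, 29.1 and 10.4 CPM in γδ libraries, against 39.8, 15.6 and 36.1 CPM in αβ libraries, and is one of a family with near-identical members. Prf1, the pore-forming perforin, had 25.3, 27.3 and 16.8 CPM in γδ libraries, against 13.0, 13.2 and 33.3 CPM in αβ libraries. Nkg7, a granule protein gene of killer cells, had 123, 217 and 28.2 CPM in γδ libraries, against 61.1, 59.98 and 243 CPM in αβ libraries, and ran with Trdc: high in γδ libraries 1 and 2 and in the third library labelled αβ. Fasl had 12.5, 21.9 and 2.05 CPM in γδ libraries, against 8.37, 13.9 and 22.0 CPM in αβ libraries.

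Inhibitory and suppressive molecules were mixed, with 13 of 22 at a higher and 9 at a lower fitted level and a median log2 fold change of 0.19. Beside Tox, Cd96, a receptor that competes for CD155, was higher in every γδ library, with 132, 179.7 and 154 CPM in γδ libraries, against 126, 99.2 and 124 CPM in αβ libraries (0.38 ± 0.44), and Il10 was the single member lower in every one. Pdcd1, the gene of PD-1, had 198, 340.4 and 313 CPM in γδ libraries, against 150.3, 226 and 202 CPM in αβ libraries, with a single γδ library among the αβ values. Foxp3, the regulatory T cell factor, stayed at or under 0.911 CPM. Of 16 naive and memory genes, 7 had a higher and 9 a lower fitted level with a median of -0.10, and Il7r was among the separated members. Bcl2, a survival gene, had 57.0, 117 and 39.8 CPM in γδ libraries, against 72.9, 49.7 and 81.4 CPM in αβ libraries, and overlapped. Of 18 homing genes, 11 had a higher and 7 a lower fitted level, with a median of 0.17 and Cxcr6 alone apart. Separated members of the inhibitory, naive and memory, and homing lists stand beside 3.94% higher and 4.15% lower of all genes tested. An excess over that background was not tested. Ccr2, the receptor of monocytes and of IL-17 producing γδ cells, had 362, 183 and 111 CPM in γδ libraries, against 27.2, 24.5 and 171 CPM in αβ libraries, highest in the libraries where Trdc and the macrophage markers were high. The third library labelled γδ, where both were low, still lay above αβ libraries 1 and 2 for Ccr2. Of 15 genes of the common γ chain receptors and STAT5, 5 had a higher and 10 a lower fitted level, with a median of -0.26. Its target Cish had 21.7, 45.3 and 23.3 CPM in γδ libraries, against 65.1, 41.8 and 53.7 CPM in αβ libraries, and Socs2 had 3.001, 6.92 and 2.34 CPM in γδ libraries, against 10.5, 6.56 and 30.4 CPM in αβ libraries, both overlapping through a single library.

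Transcripts of other blood cells were present in these sorted cells and moved with the third libraries. Macrophage and monocyte markers, 18 genes, took 3.73, 1.26 and 0.411% of all counts in γδ libraries, against 0.224, 0.199 and 2.50% in αβ libraries. Lyz2, the lysozyme of macrophages and neutrophils, was the most abundant gene of γδ library 1 and of the third library labelled αβ, with 35049.5, 11235 and 3626 CPM in γδ libraries, against 1857, 1672 and 22782 CPM in αβ libraries (0.91 ± 0.92). Csf1r, the receptor of the macrophage growth factor, had 343, 214 and 44.5 CPM in γδ libraries, against 17.5, 24.0 and 391 CPM in αβ libraries (0.44 ± 0.95). Of the macrophage list 13 of 15 genes tested had a higher fitted level in γδ cells, while Vsig4, a marker of Kupffer cells, was under 1 CPM in every library. The 13 neutrophil markers took 0.182, 0.186 and 0.0378% in γδ libraries, against 0.0295, 0.0250 and 0.363% in αβ libraries, and Ly6g was under 1 CPM throughout. Both myeloid lists were thus high in the libraries where Trdc was high.

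B cell and basophil transcripts ran the other way. All 13 B cell markers had a negative log2 fold change, with a median of -0.89. Igkc, the κ light chain constant gene, had 495, 835 and 2853 CPM in γδ libraries, against 1952, 3337 and 713 CPM in αβ libraries (-0.57 ± 0.58). The 11 mast cell and basophil markers took 0.0227, 0.0776 and 0.239% of counts in γδ libraries, against 0.386, 0.295 and 0.0547% in αβ libraries, with 8 of 9 genes tested at a lower fitted level. Mcpt8, the basophil protease, had 25.6, 144 and 484 CPM in γδ libraries, against 569, 571 and 77.9 CPM in αβ libraries, while the connective tissue mast cell protease Mcpt4 had no count. In both lists the groups overlapped through the third libraries. The 12 dendritic cell markers were the single marker list whose shares did not overlap, at 0.0553, 0.113 and 0.0806% in γδ libraries, against 0.131, 0.149 and 0.189% in αβ libraries. An exact two-sided permutation test of that difference gave p = 0.1, the smallest that 3 against 3 libraries allow, and 0.786 adjusted over the 11 marker lists. Within that list Irf8, which B cells also express, had 273, 416 and 486 CPM in γδ libraries, against 824, 923 and 465 CPM in αβ libraries, and Itgax, the integrin CD11c, had 12.5, 7.95 and 13.8 CPM in γδ libraries, against 2.59, 0.472 and 4.35 CPM in αβ libraries and was higher in every γδ library. Hepatocyte, endothelial and stellate, erythroid, and NK cell and ILC markers took at most 0.0272% of the counts of any library. The CD4, CD8 and NK1.1 list took between 0.000781 and 0.00171%, and the CD3 and CD45 list 0.223, 0.245 and 0.151% in γδ libraries, against 0.137, 0.140 and 0.170% in αβ libraries.

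**Figure D3:**
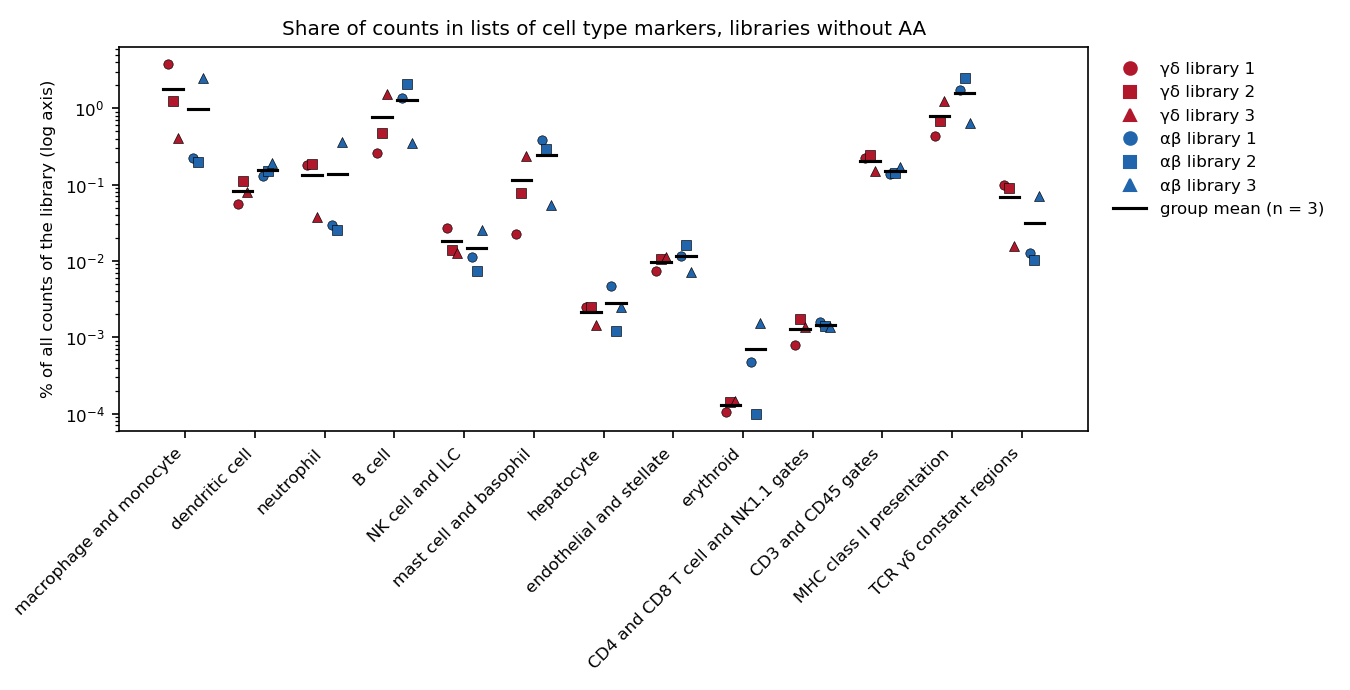
Share of all counts of a library (percent, log axis) taken by the lists of cell type markers, MHC class II genes and γδ constant genes in the libraries without AA, γδ in red and αβ in blue, with bars at the means of 3 libraries. In the macrophage, neutrophil and γδ constant lists the third library labelled γδ (triangle) is low and the third library labelled αβ high, and in the B cell, mast cell and basophil, and MHC class II lists the order is turned round.

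Antigen presentation genes stood with the B cell markers. Of 11 MHC class II genes, 1 had a higher and 10 a lower fitted level in γδ cells, with a median log2 fold change of -1.07. H2-Aa, a class II α chain, had 948, 1653 and 3325 CPM in γδ libraries, against 4913, 7085 and 1529 CPM in αβ libraries, and Cd74, the invariant chain, had 486, 1101 and 1835 CPM in γδ libraries, against 2170.1, 3739 and 850.2 CPM in αβ libraries. The third library labelled γδ was the highest of its group and the third library labelled αβ the lowest of its group. The part of the B cell transcripts in this difference was not tested. Of 23 genes of NF-κB and costimulation, 4 had a higher and 19 a lower fitted level, with a median of -0.25. Cd86, a costimulatory ligand of antigen presenting cells, had 52.7, 69.7 and 45.8 CPM in γδ libraries, against 82.5, 132 and 81.4 CPM in αβ libraries (-0.85 ± 0.48), and Cd40 had 53.9, 48.2 and 49.0 CPM in γδ libraries, against 68.3, 154 and 92.4 CPM in αβ libraries (-1.09 ± 0.45). Both were lower in every γδ library, beside 4.15% of all genes tested, and the part of the B cell transcripts in this was not tested either.

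No gene of lipid synthesis was called, and most had a lower fitted level in γδ cells. Of 22 genes of cholesterol and fatty acid synthesis, 3 had a higher and 19 a lower fitted level. The median log2 fold change was -0.28. The groups were apart in 3 of the 22, all lower, beside 4.15% of all genes tested. An excess over that background was not tested. Among those 3, Idi1, an enzyme of isoprenoid synthesis, had 103, 127 and 109 CPM in γδ libraries, against 175, 169.6 and 128 CPM in αβ libraries, and Fasn, fatty acid synthase, had 95.8, 142 and 118 CPM in γδ libraries, against 213, 168 and 162 CPM in αβ libraries. The gap between the nearest libraries of Idi1 was narrow. Of 23 genes of glycolysis and hypoxia, 5 had a higher and 18 a lower fitted level, with a median of -0.17. Its transcription factor gene Hif1a had 212, 236 and 157 CPM in γδ libraries, against 336, 265 and 244 CPM in αβ libraries (-0.50 ± 0.30). Gapdh, which has many pseudogene copies, had 63.3, 59.0 and 63.1 CPM in γδ libraries, against 66.2, 48.9 and 91.8 CPM in αβ libraries, a level that may be lowered by reads shared with the copies. Of 23 nuclear genes of oxidative phosphorylation, 17 had a higher and 6 a lower fitted level, with a median of 0.19, and Cox7c, a cytochrome oxidase subunit, was alone in having groups apart, with 10.5, 10.1 and 11.5 CPM in γδ libraries, against 3.89, 7.50 and 5.43 CPM in αβ libraries. A single separated gene in this list is near the 3.94% of all genes tested that were higher in every γδ library. The 12 mitochondrially encoded genes tested were all at a higher fitted level, with a median of 0.28, but mt-Cytb had 3427, 2940.0 and 4071 CPM in γδ libraries, against 3104, 3505 and 1674 CPM in αβ libraries, low in the third library labelled αβ alone. Without the third libraries 2 of the 12 were higher and 10 lower, with a median of -0.14. Fatty acid oxidation and uptake had 14 higher and 7 lower of 21, with a median of 0.14.

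No gene of growth, interferon response or cell death was called. Most of them too had a lower fitted level in γδ cells, but over all genes tested 45.5% were higher, with a median log2 fold change of -0.07. The proliferation and cell death medians were near that median. Of 30 proliferation genes, 8 had a higher and 22 a lower fitted level, with a median log2 fold change of -0.09. Cenpe, a kinetochore motor, was lower in every γδ library, with 55.5, 64.4 and 69.8 CPM in γδ libraries, against 109, 103 and 72.1 CPM in αβ libraries. Over all genes tested, 4.15% were lower in every γδ library and 3.94% higher, so a single separated member of such a list is near that background. Mki67, the proliferation antigen, had 63.1, 106 and 106 CPM in γδ libraries, against 124, 146 and 80.4 CPM in αβ libraries, and overlapped. Interferon stimulated genes had 8 higher and 18 lower of 26, with a median of -0.26, and early response genes had 9 higher and 8 lower of 17, with a median of 0.09. Among 20 genes of cell death and survival, 7 had a higher and 13 a lower fitted level, with a median of -0.06, and Xiap, a caspase inhibitor, was higher in every γδ library, with 60.5, 46.0 and 55.3 CPM in γδ libraries, against 32.5, 28.0 and 41.7 CPM in αβ libraries. Without the third libraries, 12 of the 20 cell death genes were higher (median 0.09), as were 13 of the 26 interferon stimulated genes (median 0.01). Of the 30 proliferation genes 5 were then higher, with a median of -0.43, beside -0.21 over all genes tested.

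Genes of the AA pathway, whose enzymes turn AA into prostaglandins and leukotrienes, gave no call in cells without AA. Of 27 genes tested of AA enzymes and receptors, 13 had a higher and 14 a lower fitted level in γδ cells. The median log2 fold change was -0.06. The groups were apart in 6, with 4 higher and 2 lower, beside 3.94% and 4.15% of all genes tested. An excess over that background was not tested. Ptger2, a prostaglandin E2 receptor, had 56.1, 38.2 and 46.2 CPM in γδ libraries, against 23.7, 18.2 and 33.3 CPM in αβ libraries. Tbxa2r, the thromboxane receptor, had 38.9, 51.5 and 26.3 CPM in γδ libraries, against 12.03, 18.5 and 17.7 CPM in αβ libraries. Ltb4r1, given above, and Cysltr1, a cysteinyl leukotriene receptor at 6.36, 5.05 and 5.34 CPM in γδ libraries, against 3.70, 4.11 and 3.96 CPM in αβ libraries, were also higher in every γδ library. Cysltr2, the other cysteinyl leukotriene receptor, was lower in every γδ library, with 11.4, 11.3 and 8.10 CPM in γδ libraries, against 15.2, 12.8 and 13.7 CPM in αβ libraries. Each of these receptor genes, higher or lower, was under 2-fold apart between the nearest libraries. Fads2, a desaturase on the route of AA synthesis, had 0, 7.41 and 4.48 CPM in γδ libraries, against 14.2, 8.40 and 15.7 CPM in αβ libraries. The enzyme genes Alox5 and Ptgs2 overlapped, with Alox5 at 6.52, 10.8 and 24.6 CPM in γδ libraries, against 47.6, 15.5 and 3.14 CPM in αβ libraries.

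Over all pathway lists, 434 genes were tested, of which 17 (3.92%) were higher and 11 (2.53%) lower in every γδ library. These shares stand beside 3.94% and 4.15% of all genes tested, so the count of separated members is near the background and is not a result about the lists. No list held a called gene.

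**Figure D4:**
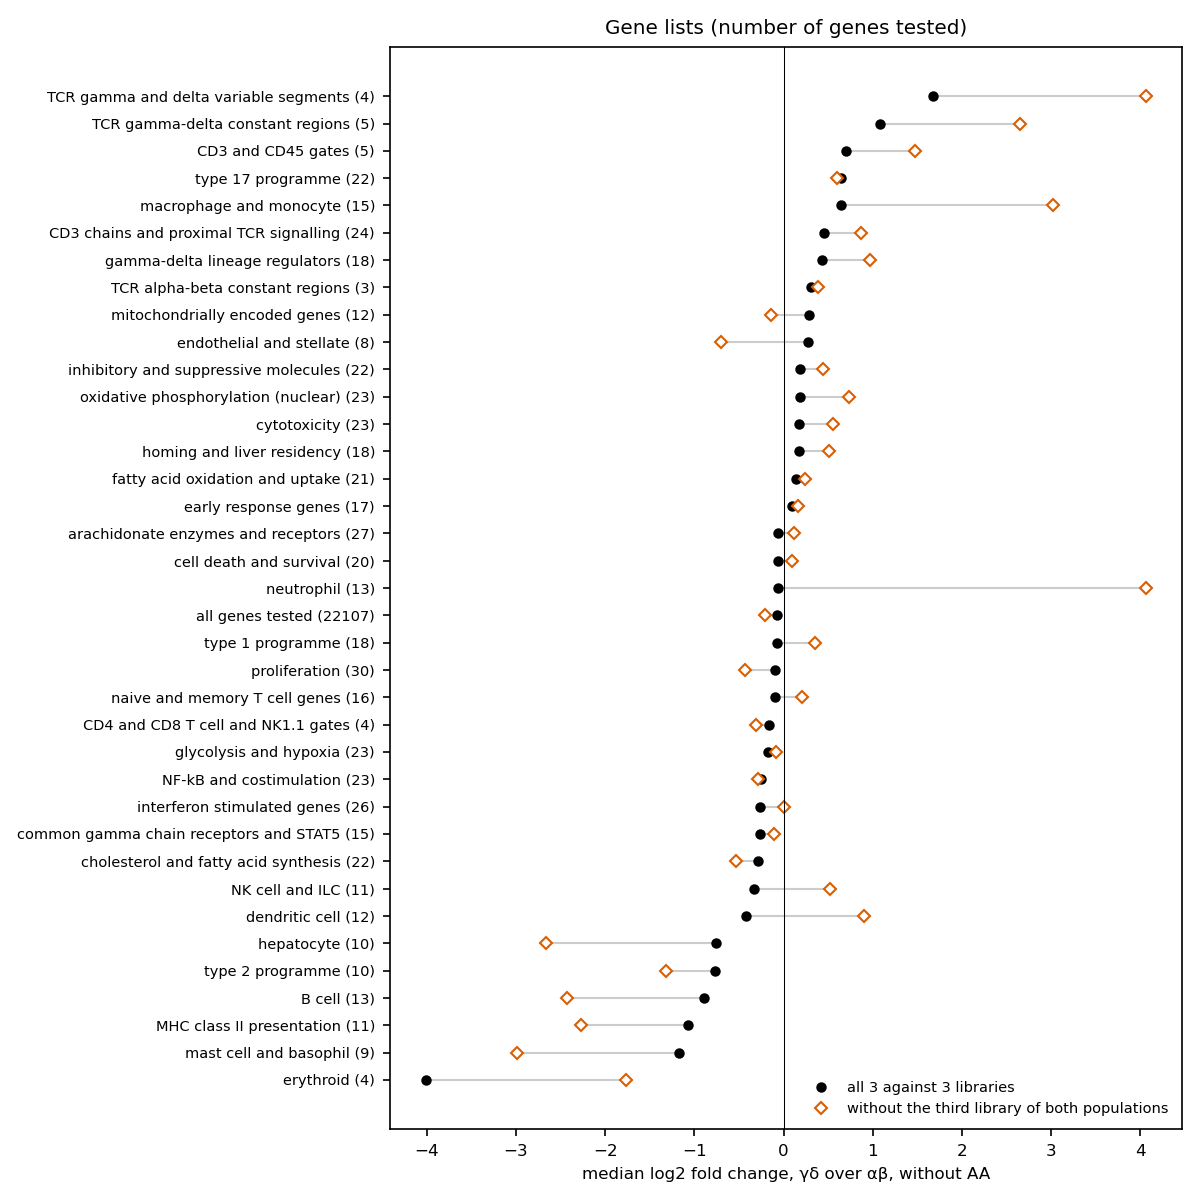
Median log2 fold change of γδ over αβ cells without AA for each list with at least 3 genes tested (number in brackets), with all libraries (black) and without the third library of both populations (orange). The macrophage median is 0.65 with all libraries and 3.02 without the third ones, and the B cell median is -0.89 and -2.43, while the type 17 median is 0.65 and 0.61.

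Without the third library of both populations, with 2 libraries left in each, edgeR called 6 of 26018 genes (0.0231%), all higher in γδ cells. They were Prg2, Csf1r, Lyz2, Prtn3, Clec4a2 and Elane, genes of eosinophils, macrophages and neutrophil granules. Prg2, the eosinophil major basic protein, had 365, 324 and 60.1 CPM in γδ libraries, against 21.1, 23.0 and 460.4 CPM in αβ libraries, with a log2 fold change of 3.93 ± 0.45 (adjusted p = 0.00518 by edgeR) in place of 0.52 ± 0.93 with all libraries. All 6 were lower in the third library labelled γδ than in the third library labelled αβ. Trdc then had a log2 fold change of 5.68 ± 0.94 (adjusted p = 0.0547 by edgeR), Tcrg-C4 2.74 ± 0.52 and Cd163l1 3.68 ± 0.71, none of them called. The median of the 5 γδ constant genes was 2.65 and that of the 18 lineage genes 0.97, with 14 higher and 4 lower. The third libraries were left out because their receptor genes went against the labels. The larger values of Trdc and the other γδ constant genes without them follow from that choice. They are not evidence of a population difference. The neutrophil median was 4.06 and the mast cell and basophil median -2.99, beside -0.21 over all genes tested. Of the genes named above as apart in all libraries, Il7r was at 1.57 ± 0.47, Cxcr6 at 1.24 ± 0.55, Il10 at -2.57 ± 1.46 and Samsn1 at -1.28 ± 0.38. Others moved further from 0, with Pvrig at 5.09 ± 3.39, Znrf1 at 2.24 ± 0.58 and Crip1 at 1.87 ± 0.51, and Slc29a2 moved nearer to 0, at -2.51 ± 2.55.

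Large differences in the first 2 libraries of each population were mostly turned round in the third. Among 10643 genes with at least 5 CPM in the higher group, 77 were at least 4-fold higher (CPM plus 1) in both γδ libraries 1 and 2 than in both αβ libraries 1 and 2. In 70 of the 77 the third library labelled γδ was lower than the third library labelled αβ, and in 7 it was higher. Of the 21 genes at least 4-fold lower in γδ libraries 1 and 2, the third library labelled γδ was higher in 17 and lower in 4. With predicted genes left out, those that stayed higher in γδ libraries were Ccr10, Pvrig, Atg4c, Bmpr2 and Ifit1bl1. Those that stayed lower were Il10, Asah2, Ccdc63 and Shcbp1l. Across the 10643 genes, the log2 ratio of the third libraries had r = -0.342 and rho = -0.234 with that of the first 2, a description over genes that share libraries and are not independent.

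**Figure D5:**
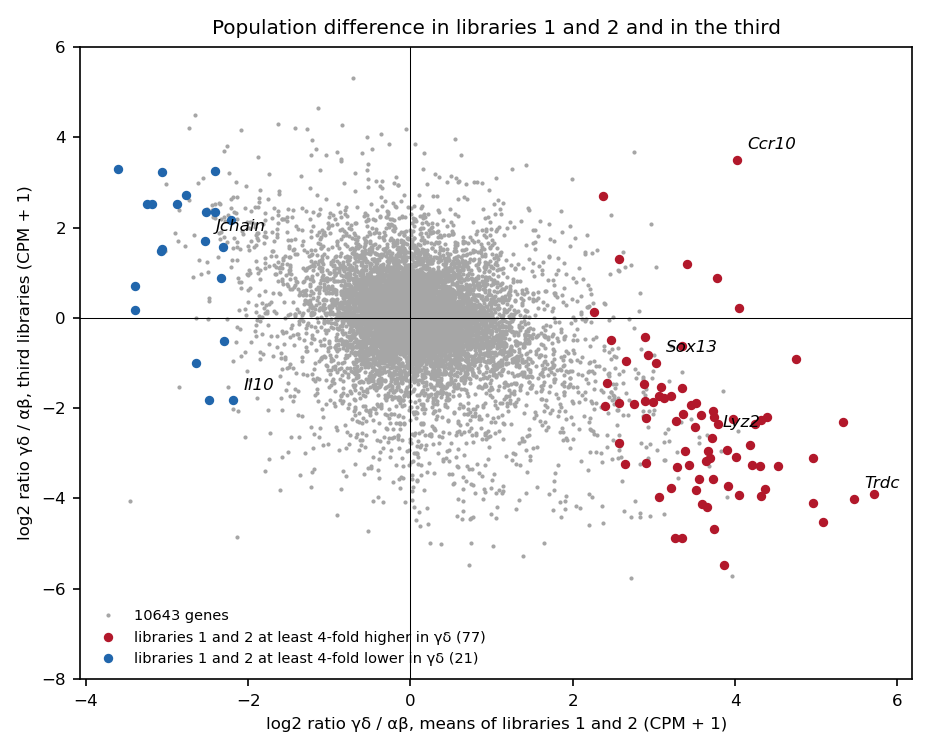
Log2 ratio of γδ over αβ in the third libraries (vertical axis) against that in the means of libraries 1 and 2 (horizontal axis), CPM plus 1, for 10643 genes in grey. Of the 77 genes in red, 4-fold higher in γδ libraries 1 and 2, 70 lie below 0 on the vertical axis, and of the 21 in blue, 4-fold lower, 17 lie above 0.

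In the 6 libraries with AA, the population difference was set beside that without AA. There Trdc had 208, 197 and 69.8 CPM in γδ libraries, against 55.4, 5.35 and 52.8 CPM in αβ libraries, and Trdc per CD3 count was 0.518, 0.352 and 0.230 in γδ libraries, against 0.358, 0.131 and 0.227 in αβ libraries. These αβ libraries were shallow in part, at 8988771, 17021782 and 6036487 counts, and 21.9% of the counts of the third went to the single gene Gm10800. Il7r had 411, 652 and 537 CPM in γδ libraries, against 225, 68.5 and 100.1 CPM in αβ libraries with AA, apart in the same direction as without. Cxcr6 with AA had 321, 519.7 and 510.2 CPM in γδ libraries, against 89.2, 38.8 and 152 CPM in αβ libraries, and Il10 with AA had 6.07, 8.06 and 0 CPM in γδ libraries, against 46.7, 35.4 and 51.0 CPM in αβ libraries, again apart in the same direction. Ccr10 with AA was at 0 in all αβ libraries and in 2 of the γδ libraries. Of the 870 genes higher in every γδ library without AA, 102 were also higher in every γδ library with AA and 32 were lower in every one. Of the 918 lower ones, 119 were lower and 57 higher. Over all genes tested, 1627 were higher and 2630 lower in every γδ library with AA.

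The difference between both population effects was tested in the same model, and 0 of 22107 genes were called (0.0%). The smallest adjusted p was 0.211, and 2117 genes had an unadjusted p under 0.05. That adjusted p was shared by Samsn1 and Tbx21, among others. Samsn1, which had lower values in every γδ library without AA, had 1334, 765 and 1472 CPM in γδ libraries, against 524, 537 and 279 CPM in αβ libraries with AA. Tbx21, which overlapped without AA, had 20.8, 27.8 and 20.3 CPM in γδ libraries, against 0, 0 and 0.166 CPM in αβ libraries with AA. An effect apart in one condition and overlapping in the other is therefore not shown to differ between them for any gene named.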

How the data were processed

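RNA of sorted TCRγδ and TCRαβ double negative T cells was sequenced in 12 libraries. The authors deposited raw counts per gene for 55401 identifiers, and depth is the sum of these counts. Bowtie 0.12.2 and the build mm8 are named per the submitters' processing notes. Which program and annotation produced the counts, and whether strand was used, is not given in the sources used here, so overlapping genes and near-identical copies are uncertain. GENCODE M21 gave symbols for 55141 identifiers and left 260 unnamed. As its build is later than mm8, no coordinates or sequences are given.

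Libraries were grouped by their labels. edgeR 4.0.16 in R 4.3.3 (filterByExpr with a minimum count of 10, TMM scaling, glmQLFit and glmQLFTest) fitted 1 mean per group to all 12 libraries, which left 8 residual degrees of freedom. Genes with a Benjamini-Hochberg adjusted p under 0.05 were called. CPM was computed from all counts of a library. Errors of log2 fold changes are SE. Shares of marker lists were compared by an exact permutation test. No 2 libraries of a group were within sampling noise of each other. The alternatives were DESeq2 1.42.0, limma 3.58.1 voom with quality weights, other scalings and filters, the 6 libraries alone, a replicate block, each library left out in turn, and the third library of both populations left out.

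The members of the comparison and the 36 gene lists (571 genes, 569 matched) were chosen with earlier results of these data known. The rule for named genes took, where no gene was called, for each direction the 8 genes of smallest p whose higher group averaged 5 CPM or more. It also took the 8 in each direction with the widest gap between libraries that did not overlap, those with the smallest p in the fit without the third libraries and in the difference of effects, 2 in each list, and a fixed set of receptor, cytokine and effector genes, with predicted genes left out. Not all of them are printed, some genes are not reported here, and other list members are named where their libraries did not overlap or to describe a list.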

Additional observations from a re-analysis of the deposited data

Results flagged for a closer look

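Of the genes reported here, 7 stood apart in one direction without AA and in the opposite direction with AA, with no overlap of libraries in either condition. The difference of effects was tested for each with edgeR, and none passed the adjusted threshold. Genes were named in part by the smallest p of this same difference, so the number of 7 is not a result. Over all genes tested, 32 of the 870 higher in every γδ library without AA were turned round with AA, as were 57 of the 918 lower ones. Lower in every γδ library without AA and higher in every one with AA were Samsn1, with a difference of log2 fold changes of -2.60 (unadjusted p = 4.21e-05 and adjusted p = 0.211 by edgeR), Marcks (-2.64, adjusted p = 0.347 by edgeR), Cd40 (-2.71, adjusted p = 0.442 by edgeR) and Sema6d (-3.19, adjusted p = 0.442 by edgeR). With AA, Marcks had 309, 216 and 438 CPM in γδ libraries, against 143, 110.2 and 88.1 CPM in αβ libraries, Cd40 had 291, 179.5 and 254 CPM in γδ libraries, against 47.4, 154 and 54.8 CPM in αβ libraries, and Sema6d had 46.3, 27.5 and 49.6 CPM in γδ libraries, against 25.3, 18.8 and 22.2 CPM in αβ libraries. Higher in every γδ library without AA and lower in every one with AA was Frmd4b (5.66, adjusted p = 0.442 by edgeR). With AA, Frmd4b had 8.47, 0.980 and 0.799 CPM in γδ libraries, against 65.9, 21.4 and 48.7 CPM in αβ libraries. Inca1 and Lrrc2 were also turned round, with adjusted p-values of the difference of 0.398 and 0.442 by edgeR and too few counts for an interpretable fold. With AA, Inca1 had 0, 0 and 0.160 CPM in γδ libraries, against 26.9, 4.64 and 0.166 CPM in αβ libraries, and Lrrc2 had 0, 0 and 0 CPM in γδ libraries, against 14.2, 0.587 and 1.33 CPM in αβ libraries. The nearest Inca1 libraries, at 0.160 and 0.166 CPM, were too close for its lack of overlap with AA to be read.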

How the results depend on the processing

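The count of 0 called genes stayed at 0 with DESeq2 size factors, library size alone, at least 5 CPM in 3 libraries, the 6 libraries alone, voom with quality weights, and each library left out in turn (0 to 0). It was 12 with no filter on low counts, 109 with DESeq2 and 6 without the third library of both populations. The count for the difference of effects, 0, was 217 with no filter, 439 with DESeq2, and 0 to 1 with each library left out, the single call coming without αβ library 2. Deviations from the group mean correlated at -0.162, -0.0694 and -0.307 between same-numbered libraries, and at -0.166 to 0.265 between others. The third libraries went against their labels and weigh on these group means, so the values cannot decide whether libraries were paired. The replicate block left 0 calls in both tests, with Trdc at 4.15 in place of 1.25. Of 554 recomputed fold changes of 37 genes, 544 kept direction and call and 5 turned sign. With each library left out, Csf1r ran from -0.24 to 3.26 (below 0 without γδ library 1, αβ library 1 or αβ library 2), Lyz2 from -0.31 to 3.24 (below 0 without γδ library 1), and Igkc from -1.66 to 0.064 (above 0 without αβ library 2). Among marker shares (γδ minus αβ, percentage points), with each library left out, macrophages ran from -0.141 to 1.59, neutrophils from -0.0613 to 0.108, NK cells and ILC from -0.00139 to 0.00863, hepatocytes from -0.00147 to 0.000256, endothelial and stellate cells from -0.00420 to 0.000345, and the CD4, CD8 and NK1.1 list from -0.00038 to 8.51e-05, each with a turn of sign. Without the third library of both populations neutrophils were at 0.157 in place of -0.00418. Of 540 recomputed list medians 43 moved by more than the spread between libraries, 15 of them without those libraries. The cause was not tested. Genes under 5 CPM have too few counts for their fold changes to be read closely.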
